A study of Homo sapiens with 3 samples.

Results

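The genes described here are 47 protein-coding genes that lie around GSK3B on the long arm of chromosome 3, in bands 3q13 to 3q21. They were chosen by gene symbol in a count table of 19220 genes, because many of them had fewer counts in CAL27 cells resistant to 5-fluorouracil (5FU) than in parental CAL27 cells. In positions of GENCODE 29 (GRCh38) they run from IGSF11, which starts at 118900557, to OSBPL11, which ends at 125595090, a span of 6.69 Mb. Of the 47 genes, 40 averaged 10 counts or more per library and were analysed further, among 13676 genes that passed this filter in the whole table.

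RNA sequencing of 3 cell lines was compared. CAL27 is an established line of oral squamous cell carcinoma (OSCC), labelled wild type and grown without drug. CAL27/5FU is its 5-fluorouracil-resistant derivative, which the authors obtained by raising the 5FU concentration over many months and then kept in 10 μM 5FU, and CAL27/OXA is the oxaliplatin-resistant derivative, kept in 10 μM OXA. All 3 lines were grown in high-glucose DMEM with fetal bovine serum, and the 2 drugs were present only in the medium of the line named for each. Each line was represented by the 1 library that has a sample label here, so no replicate check and no test was made. The tables hold 3 further columns, named like other samples of the same lines, which have no label here and were not used. The CAL27/5FU line is 1 derivative of CAL27, so that the drug, the selection and the history of this derivative cannot be told apart. Both derivatives were compared with the same CAL27 library.

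The libraries held between 37297713 (CAL27/5FU) and 43455488 (CAL27/OXA) counts. Values are given as deposited counts in the order CAL27, CAL27/5FU and CAL27/OXA, and ratios as log2 ratios after TMM scaling, with an exact 95% interval on the pair of counts that covers counting error only. A gene was called higher or lower past 1.5-fold. All 10 squamous epithelial markers that were looked up were present in each library, at a summed level of 14924, 3488 and 4909 CPM (counts scaled to library size). Lowest against CAL27 in CAL27/5FU were the basal keratin KRT14 (58222, 948 and 8423 counts) and the desmosomal PKP1 (10588, 507 and 267), and highest were the adhesion genes EPCAM (9428, 12457 and 10990) and CDH1 (14800, 13459 and 15076).

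Neighbouring genes on a chromosome are usually controlled one by one, through their own promoters and enhancers, and genes that share a band often share no function. The genes of bands 3q13 to 3q21 serve many unrelated tasks, from mitochondrial assembly, Golgi traffic and DNA repair to cell junctions and immune signalling. DNA was not measured in these libraries, and no cause of the differences was tested. GSK3B itself encodes glycogen synthase kinase 3β, a serine/threonine kinase that marks β-catenin for destruction and also acts in glycogen metabolism and many other signalling routes.

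Within the list, 3 neighbouring genes near the middle of the span stood near their CAL27 level in CAL27/5FU while the genes around them were lower: PARP9, DTX3L and PARP14. These genes are known as interferon-inducible, and PARP9 and DTX3L are transcribed in opposite directions from a shared promoter region. Short stretches of their promoters are therefore shown before the values, beside those of 2 other genes of the list that hold the same motif. The 250 bases before each annotated RefSeq transcript start (GRCh38.p14) were searched on both strands for an ISRE-like motif, GAAA and GAAA with NN between, a reduced form of the interferon-stimulated response element, and for a GAS-like motif, TTCNNNGAA, which STAT factors bind. An entry was found for 44 of the 47 genes (53 entries), and 4 genes had an ISRE-like match: FAM162A, PARP9, PARP14 and HSPBAP1. Of 34788 distinct human promoter windows of this length, 3.02% held the ISRE-like and 6.57% the GAS-like motif. The 30-base stretches below are written 5′ to 3′ on the strand of the gene, with motif bases in capitals.
PARP9 (minus strand, chr3:122564322-122564351): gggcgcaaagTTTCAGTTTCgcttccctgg
PARP14 (plus strand, chr3:122680795-122680824): agttTTCCAGGAAacGAAAGCGAAAgagtc
FAM162A (plus strand, chr3:122383940-122383969): gcacatttccTTTCTATTTCacacaggtac
HSPBAP1 (minus strand, chr3:122793966-122793995): tagaaaaggaGAAACAGAAAcgaagctaag
In PARP9 and FAM162A the capitals are the reverse complement of the motif, and in PARP14 the first run of capitals is the GAS-like and the second the ISRE-like match. The PARP9 match began 41 bases before the PARP9 start and spanned the first transcribed base of DTX3L at 122564338, while the window before the DTX3L start held no match. The ISRE-like matches of PARP14, HSPBAP1 and FAM162A began 29, 154 and 232 bases before the respective starts, and the GAS-like match of PARP14 began 40 bases before its start. GAS-like matches were also found for UPK1B, RABL3 and GTF2E1, and the latter pair share the same bases between their starts. A match describes these letters alone. FAM162A and HSPBAP1, which also hold the ISRE-like letters, were lower past 1.5-fold in CAL27/5FU.

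The list as a whole was lower in CAL27/5FU than in CAL27. The median log2 ratio of the 40 genes was -0.78 (0.583-fold), with the middle of the distribution between -1.04 and -0.49. Of the 40 genes, 29 were lower past 1.5-fold, 3 were higher and 8 lay within 1.5-fold. Over all 13676 genes the median was -0.00, with 14.0% lower and 15.2% higher past 1.5-fold. Past 2-fold, 14 of the 40 were lower and 3 higher, beside 6.72% and 8.46% of all genes. Since the genes were chosen for this difference, these counts describe the choice and are not evidence for it. The genes nearest to the threshold were IQCB1 (-0.60) and HEG1 (-0.63) inside it, and POGLUT1 (-0.52) and GTF2E1 (-0.39) outside it.

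**Figure D1:**
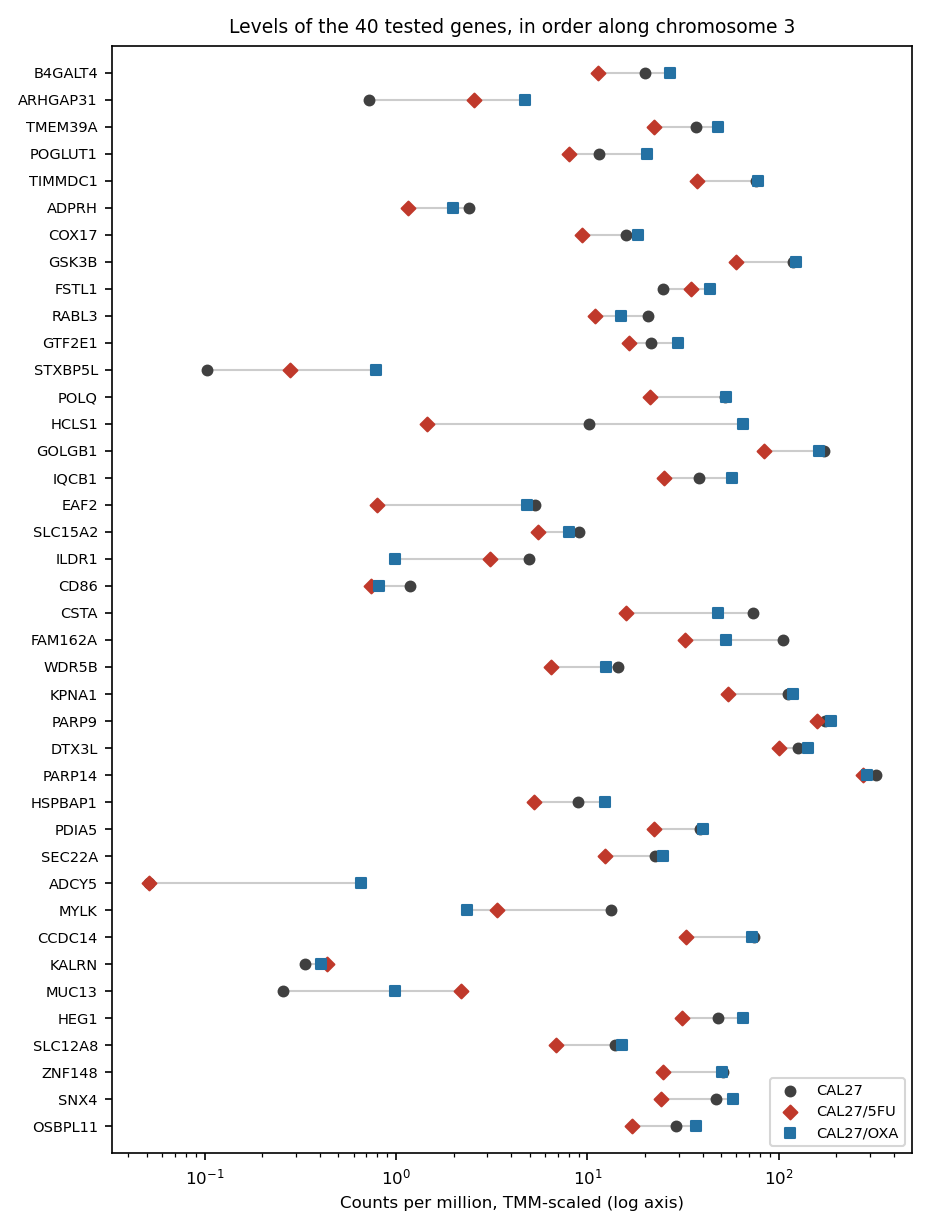
Level of each of the 40 genes in the 3 lines, in CPM after TMM scaling (log axis), with genes from top to bottom in their order along chromosome 3 and 1 point per library. The CAL27/5FU diamonds lie to the left of the CAL27 circles for 35 of 40 genes, while the CAL27/OXA squares lie on either side of them.

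GSK3B (minus strand, 119821323 to 120094417) had 4602, 2337 and 5457 counts. Its level was 118, 59.7 and 123 CPM. GSK3B was low in CAL27/5FU alone, with a log2 ratio of -0.98 (95% interval -1.06 to -0.91), while CAL27/OXA stood at 0.06 against CAL27 (-0.00 to 0.11). The other genes of the β-catenin destruction complex lie elsewhere in the genome and did not show this difference. Of 9 tested genes of that complex, only GSK3B was lower past 1.5-fold in CAL27/5FU, none was higher, and the median was -0.13. Over all genes, 14.0% were lower and 15.2% higher. Next lowest was CSNK1A1, casein kinase 1α, at -0.20, and highest were FBXW11 at 0.11 and GSK3A, the paralog of GSK3B, at 0.07. In CAL27/OXA, APC was the 1 gene of the complex past 1.5-fold (0.65, higher). AXIN2, with 0, 13 and 2 counts, did not pass the filter.

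The 3 mitochondrial genes were all lower in CAL27/5FU. TIMMDC1, an assembly factor of respiratory complex I, had 2980, 1468 and 3474 counts. COX17, the copper chaperone of cytochrome c oxidase, had 617, 366 and 814. FAM162A, a hypoxia-responsive mitochondrial protein, had 4094, 1271 and 2346. Their ratios in CAL27/5FU were -1.03, -0.76 and -1.69, all past 1.5-fold, whereas in CAL27/OXA only FAM162A was (-0.99), with TIMMDC1 at 0.03 and COX17 at 0.21. COX17 shares 10812 bases with POPDC2 on the same strand and TIMMDC1 shares 798 bases with CD80, but POPDC2 and CD80 had at most 8 and 6 counts in any library.

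Genes of membrane traffic, the Golgi and lipid transfer formed the largest group among the tested genes. Of 10 tested, 8 were lower past 1.5-fold in CAL27/5FU, beside 14.0% of all genes, with a group median of -0.81. In CAL27/OXA the median was 0.31 with 2 higher and none lower, beside 14.1% and 17.0% of all genes. GOLGB1, which encodes the Golgi tether giantin, had 6749, 3278 and 7208 counts (-1.05, interval -1.11 to -0.99). SNX4, an endosomal sorting nexin, had 1838, 951 and 2559 counts (-0.96). PDIA5, a protein disulfide isomerase of the endoplasmic reticulum, had 1515, 876 and 1788 counts (-0.80), and it overlaps SEC22A on the same strand over 23301 bases, so that their reads may be divided between them. The remaining genes of the group that were lower, namely RABL3, SEC22A, B4GALT4, OSBPL11 and TMEM39A, had ratios between -0.92 and -0.73. POGLUT1, which adds glucose to Notch receptors, was within 1.5-fold in CAL27/5FU with 450, 315 and 915 counts (-0.52, interval -0.73 to -0.31) and higher in CAL27/OXA (0.83). STXBP5L, a regulator of vesicle release, had only 4, 11 and 35 counts. Its interval in CAL27/5FU, -0.30 to 3.56, covered 0, and in CAL27/OXA it was 2.46 (1.46 to 4.89).

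All 5 genes of transcription and nuclear transport were below 0 in CAL27/5FU, and 4 were lower past 1.5-fold, beside 14.0% of all genes. KPNA1, an importin α that carries proteins into the nucleus, had 4345, 2134 and 5249 counts (-1.03). ZNF148, a zinc-finger transcription factor, had 1988, 974 and 2246 (-1.03). WDR5B, a WD-repeat gene whose end overlaps that of FAM162A by 3 bases, had 560, 253 and 558 (-1.15). GTF2E1, a subunit of the general factor TFIIE, had 838, 642 and 1315 counts and stayed within 1.5-fold (-0.39, interval -0.54 to -0.24). These genes were within 1.5-fold in CAL27/OXA, between -0.19 and 0.46.

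EAF2, a partner of the ELL elongation factors, stood apart from the rest of that group, with 208, 31 and 215 counts. Its ratio of -2.68 (interval -3.35 to -2.20) in CAL27/5FU was among the lowest of the list, and in CAL27/OXA it was -0.14. IQCB1, a ciliary protein whose start lies next to that of EAF2, had 1484, 984 and 2526 counts and was just past the threshold in CAL27/5FU (-0.60). The centriolar gene CCDC14 had 2875, 1288 and 3217 counts (-1.16), and the solute carriers SLC12A8 and SLC15A2, the latter a peptide transporter, were at -1.03 and -0.72. HSPBAP1, which encodes a partner of a small heat-shock protein, had 349, 206 and 552 counts (-0.76).

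The DNA repair and ADP-ribosylation genes divided into lower genes and genes near the CAL27 level. POLQ, the polymerase of theta-mediated end joining, had 2030, 831 and 2345 counts (-1.29, interval -1.41 to -1.18), and ADPRH, which removes ADP-ribose from arginine, had 94, 45 and 88 (-1.04, interval -1.62 to -0.54). In CAL27/OXA they were at 0.02 and -0.28. PARP9, an inactive or weakly active member of the PARP family, had 6764, 6181 and 8360 counts, and its ratio in CAL27/5FU was -0.14 (interval -0.19 to -0.09) but turned to 0.03 with total counts or FPKM and to 0.01 relative to the rest of chromosome 3. DTX3L, the ubiquitin ligase that pairs with PARP9, had 4910, 3913 and 6299 counts (-0.33, interval -0.40 to -0.27). PARP14, a mono-ADP-ribosyltransferase, had 12498, 10809 and 12845 counts (-0.22, interval -0.25 to -0.18). PARP9 and DTX3L overlap by 340 bases on opposite strands, and reads there cannot be assigned without strand. These 3 genes are neighbours between 122527924 and 122730840, and KPNA1 before them (-1.03) and HSPBAP1 after them (-0.76) were both lower. PARP15, between DTX3L and PARP14, had at most 1 count in any library. Their levels were 42.5, 20.4 and 38.8 FPKM in CAL27.

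Interferon-stimulated genes elsewhere in the genome were mostly higher in CAL27/5FU. Of 38 interferon-stimulated genes looked up, none is in the list. In CAL27/5FU, 31 of the 38 were higher and none lower past 1.5-fold, beside 15.2% and 14.0% of all genes. Their median was 1.35. IFI44L (2.51) and IFI6 (2.42) were the highest, and LGALS3BP (-0.05) and PARP12 (0.01) the lowest. In CAL27/OXA the median was 0.10, with 6 higher and 3 lower, beside 14.1% and 17.0% of all genes. PARP9, DTX3L and PARP14 in CAL27/OXA were at 0.12, 0.17 and -0.15. Among 20 tested genes of the PARP and ADP-ribosylation family, which include ADPRH and these 3, the median in CAL27/5FU was -0.03. Only ADPRH was lower and none higher past 1.5-fold, beside 14.0% and 15.2% of all genes. PARP11 (0.27) and PARP10 (0.27) were the highest there. The part of interferon-stimulated expression in the ratios of PARP9, DTX3L and PARP14 was not tested.

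The genes of matrix, adhesion and cytoskeleton covered the widest range of ratios in CAL27/5FU. Of 8 tested, 4 were lower and 2 higher past 1.5-fold in CAL27/5FU, beside 14.0% and 15.2% of all genes. In CAL27/OXA 3 were lower and 3 higher, beside 17.0% and 14.1%. CSTA, cystatin A, a protease inhibitor of the cornified layer of squamous epithelium, had 2874, 622 and 2140 counts. Its ratios were -2.21 (interval -2.34 to -2.09) in CAL27/5FU and -0.61 in CAL27/OXA. It belongs by function with the squamous markers. Of these, 8 of 10 were lower past 1.5-fold in CAL27/5FU (median -1.62), beside 14.0% of all genes. In CAL27/OXA 6 of 10 were lower (median -1.60), beside 17.0% of all genes. The part of these markers' change in the ratio of CSTA was not tested. MYLK, myosin light-chain kinase, had 517, 132 and 105 counts and was lower in both derivatives, at -1.96 and -2.46. ILDR1, a protein of tricellular junctions, had 194, 121 and 44 counts, lower in CAL27/5FU (-0.68) and lower still in CAL27/OXA (-2.27). HEG1, a transmembrane protein of cell junctions, had 1880, 1221 and 2878 counts (-0.63 and 0.42).

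HCLS1 differed most between the derivatives. It encodes a cortactin-like protein known from blood cells and had 397, 57 and 2872 counts, low in CAL27/5FU and high in CAL27/OXA. The ratio to CAL27 was -2.77 (interval -3.23 to -2.40) in CAL27/5FU, the lowest of the 40 genes, and 2.66 (2.51 to 2.82) in CAL27/OXA. The other immune gene tested, the co-stimulatory ligand CD86, had 46, 29 and 36 counts and intervals that covered 0 in both comparisons (-1.40 to 0.03 and -1.21 to 0.12). Of 7 leukocyte markers, PTPRC (the pan-leukocyte antigen CD45) had 2, 0 and 0 counts, CD3E had 7 in each library, LYZ had 2, 5 and 0, and MS4A1 was at 0 in all. CD68 (3143, 1827 and 5055) and CD14 (637, 1290 and 341) made up nearly all of their summed level of 97.3, 80.0 and 122 CPM. In these bulk libraries, fewer cells of a kind and less RNA per cell cannot be told apart.

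The genes that break the fall were looked for next. Among the 40 listed genes, an interval wholly above 0 in CAL27/5FU was found for 3, ARHGAP31, FSTL1 and MUC13, beside 36.6% of all genes. Past 1.5-fold as well, a restriction added after the values were seen, were ARHGAP31 and MUC13, beside 14.3% of all genes. STXBP5L and KALRN were above 0 with intervals that covered 0, and ADCY5, with 2, 2 and 29 counts, stood at -0.00 (-3.79 to 3.78).

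FSTL1, a secreted follistatin-like glycoprotein, was the abundant exception. It had 966, 1364 and 1944 counts, or 6.02, 9.52 and 11.6 FPKM. The ratio was 0.49 (interval 0.37 to 0.61) in CAL27/5FU, within 1.5-fold, and 0.82 (0.71 to 0.93) in CAL27/OXA, and it was above 0 under each of the 11 settings tried in both. In CAL27/5FU the settings gave ratios of up to 0.66, which is past 1.5-fold. FSTL1 lies at 120392293 to 120451253, between LRRC58 (-0.78) and NDUFB4 (-1.42), both lower in CAL27/5FU. Fibroblasts are known to make FSTL1, and the 7 fibroblast markers summed to 41.9, 47.2 and 50.1 CPM, with COL3A1 at 0 in each library, COL1A1 at 1387, 1068 and 1050 counts, PDGFRB at 35, 55 and 76, COL1A2 at 90, 300 and 212, and LUM at 120, 414 and 877. Of the 4 markers that passed the filter, 3 were higher past 1.5-fold in each derivative, and their part in the ratio of FSTL1 was not tested.

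The other exceptions were scarce transcripts. ARHGAP31, which inactivates the GTPases Rac1 and Cdc42, had 28, 100 and 210 counts. MUC13, a transmembrane mucin, had 10, 86 and 44 counts. The ratios in CAL27/5FU were 1.76 (interval 1.21 to 2.49) and 2.88 (2.15 to 4.21), and in CAL27/OXA 2.64 and 1.77. Both lay near 0.08 FPKM in CAL27, with ARHGAP31 at 0.332 and MUC13 at 0.802 FPKM in CAL27/5FU, so that the size of these folds rests on few reads in CAL27. KALRN, a guanine-nucleotide exchange factor, had 13, 17 and 18 counts (0.34, interval -0.75 to 1.54).

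**Figure D2:**
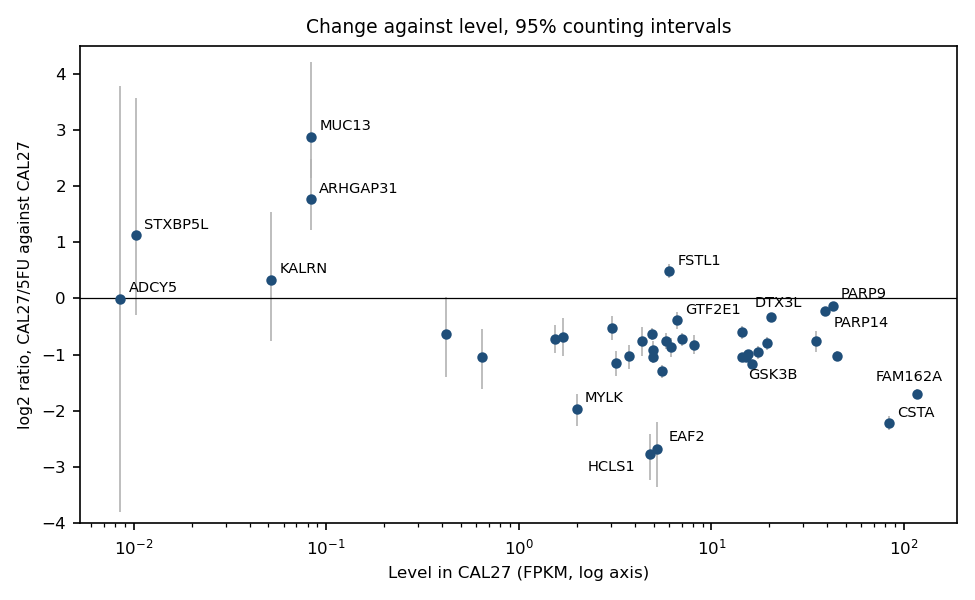
Log2 ratio of CAL27/5FU to CAL27 (vertical axis, with 95% counting intervals as bars) against the level in CAL27 in FPKM (log axis) for the 40 genes, 1 point per gene. Genes above 1 FPKM lie below 0 except FSTL1, while the points on the left scatter on both sides of 0 with wide intervals.

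By level in CAL27, the 3 genes higher past 1.5-fold in CAL27/5FU were all among the 7 tested genes under 1 FPKM. The level in CAL27 is also the denominator of the ratio, and ADCY5 and STXBP5L passed the filter only through their counts in CAL27/OXA, so no median is given for these 7 genes. The 19 genes between 1 and 10 FPKM had a median of -0.82, with 16 lower and none higher. The 14 genes at 10 FPKM or more had a median of -0.97, with 11 lower and none higher. When the list was limited to 31 genes that averaged 200 counts or more, a limit set after the values were seen, 25 were lower and none higher, with a median of -0.87. Among these 25, MYLK (517, 132 and 105 counts) passed the limit only through CAL27, where it is high, and so had to be lower. The limit also leaves out ARHGAP31, MUC13 and STXBP5L, the 3 genes higher past 1.5-fold. Around the median of the full list, 17 of the 40 genes lay within 0.25 and 26 within 0.5 on the log2 scale.

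By other features of the genes, the medians in CAL27/5FU lay between -0.68 and -0.87. Genes on the plus strand (16) had a median of -0.68 and genes on the minus strand (24) of -0.87. Past 1.5-fold, 9 of the 16 were lower and 2 higher, and 20 of the 24 were lower and 1 higher. Genes shorter than the median length stood at -0.76 and the longer ones at -0.83. By position, the first 14 genes, B4GALT4 to HCLS1, had a median of -0.79, the 13 from GOLGB1 to PARP14 of -0.72, and the 13 from HSPBAP1 to OSBPL11 of -0.80. There was thus no gradient in the medians from end to end of the list. In CAL27/OXA the same position groups had medians of 0.41, -0.15 and 0.25.

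The other genes of the span, which are not on the list, were mostly lower too. The span was set by the listed genes, so these genes are not independent of that choice. Of the 9 that were tested, 8 were lower and 1 higher past 1.5-fold in CAL27/5FU, beside 14.0% and 15.2% of all genes. Their median was -1.04. HACD2, a dehydratase of very-long-chain fatty acid synthesis, had 8215, 2987 and 6217 counts (-1.47). NDUFB4, a subunit of complex I, had 2335, 877 and 2749 (-1.42), and DIRC2, a lysosomal membrane transporter, had 1565, 620 and 1402 (-1.34). UMPS, which makes uridine monophosphate and can also convert 5FU to its nucleotide, had 1955, 956 and 2701 counts. Its ratio was -1.04 (interval -1.15 to -0.93) in CAL27/5FU and 0.28 in CAL27/OXA, beside -0.98 and 0.06 for GSK3B. CCDC58, LRRC58 and the integrin gene ITGB5 were at -0.86, -0.78 and -0.69. SEMA5B, a semaphorin named after its values were seen, had 68 counts in CAL27 and 0 in both derivatives. With 3 counts in place of each 0, it was 22.8-fold lower in CAL27/5FU and 25.8-fold lower in CAL27/OXA. The upper ends of its intervals were log2 ratios of -4.17 and -4.35. SEMA5B passed the filter on mean counts only through CAL27, where it is high, and so had to be lower in the derivatives. It is nevertheless included in the counts of lower genes and in the medians given here for the 9 genes. In CAL27/OXA the 9 genes had a median of 0.05, with 2 lower (HACD2 and SEMA5B) and 1 higher past 1.5-fold, beside 17.0% and 14.1% of all genes.

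To ask how far the lower stretch reached, the median of 11 neighbouring tested genes was taken along each chromosome, and consecutive windows with a median lower than 1.5-fold were joined. Windows of this kind were 3.66% of 13170 in CAL27/5FU. The run that held GSK3B was 49 genes long, from TMEM39A (119429500) to SLC41A3 (126101561), over 6.67 Mb, with a median of -0.86. It held 38 of the 40 tested genes of the list and was second in number of genes among 44 such runs in the genome. Its length depended on the window and the scaling. With windows of 7 genes it was 9 genes long, from TMEM39A to FSTL1, and with windows of 21 genes 82 genes long, from COX17 to DNAJC13. With total counts, with FPKM at a pseudocount of 0.1, or relative to the rest of chromosome 3, it was 13 genes long, from TIMMDC1 to HCLS1. These scalings moved the median of all genes in CAL27/5FU by 0.17, 0.17 and 0.15, and with FPKM at a pseudocount of 1 no run held GSK3B. The running median at the 40 genes lay between -0.07 at B4GALT4 and -1.05 at SLC15A2.

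**Figure D3:**
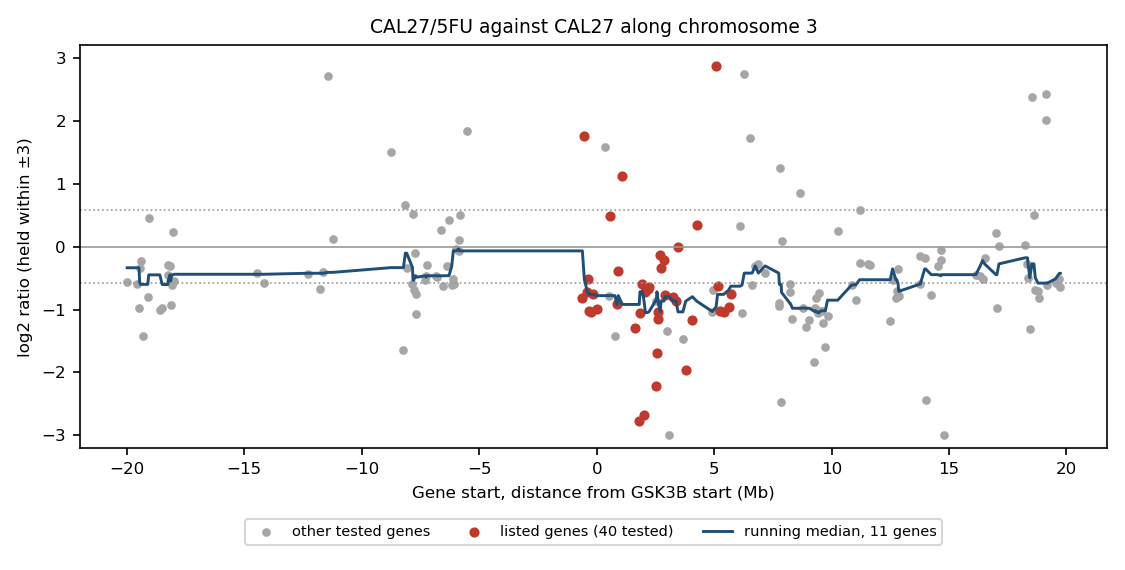
Log2 ratio of CAL27/5FU to CAL27 for 174 tested genes within 20 Mb of GSK3B on chromosome 3, by distance of the gene start from that of GSK3B. Listed genes are red, other genes grey, the line is the running median of 11 genes, dotted lines mark 1.5-fold, and 2 values beyond 3 are drawn at the edge. The line drops below the lower dotted line near GSK3B, returns above it between 6 and 8 Mb, and drops again.

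The ends of the stretch were unlike each other. Before the list, no tested gene lay between ZBTB20, which starts at 114314501, and B4GALT4 at 119211732. ZBTB20, a zinc-finger repressor, had 151, 547 and 230 counts (1.84 in CAL27/5FU). The 20 tested genes before the span had a median of -0.39, with 5 lower and 1 higher past 1.5-fold. All 703 tested genes of chromosome 3 outside the span had a median of -0.15 with 21.6% lower. They include these 20 genes and the further lower run described below. Chromosome 3 outside the span was therefore itself slightly below 0 in CAL27/5FU, and in CAL27/OXA it was at -0.01.

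After the span, the lower genes were interrupted and then went on. The 20 tested genes after OSBPL11 had a median of -0.61, with 11 lower and 4 higher past 1.5-fold. ALG1L (0.33, interval -0.02 to 0.70) and SLC41A3 (-1.05), a magnesium transporter, came first. The 6 tested genes between SLC41A3 and TPRA1 had a median of -0.29, among them ALDH1L1 (14, 105 and 28 counts, 2.74) and KLF15 (21, 74 and 173 counts, 1.72), scarce in CAL27 and named after their values were seen. A further run began at MCM2 (127598223), a subunit of the replicative helicase with 9955, 5350 and 15252 counts (-0.90), and ended with ATP2C1 at 131016712. It was 24 genes and 3.42 Mb long with a median of -0.98, and 20 of its genes were lower past 1.5-fold.

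CAL27/OXA did not share the lower stretch. The 40 genes had a median of 0.11 against CAL27, with 4 lower, 7 higher and 29 within 1.5-fold, beside 17.0% lower and 14.1% higher over all genes. Past 2-fold, 2 were lower and 5 higher, beside 9.28% and 6.54%. No run of lower or higher windows, which were 4.49% and 3.16% of all windows, held GSK3B, and the running median at the 40 genes lay between -0.17 and 0.46. Of the 29 genes lower past 1.5-fold in CAL27/5FU, 24 were within 1.5-fold in CAL27/OXA, 4 were lower (MYLK, ILDR1, FAM162A and CSTA) and 1, HCLS1, was higher. The higher genes in CAL27/OXA were ADCY5, HCLS1, ARHGAP31, STXBP5L, MUC13, POGLUT1 and FSTL1. ADCY5, an adenylyl cyclase, had 2 counts in CAL27 and 29 in CAL27/OXA (2.81, interval 1.69 to 6.78). ADCY5 and STXBP5L passed the filter on mean counts only through CAL27/OXA, where they are high, and so had to differ.

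**Figure D4:**
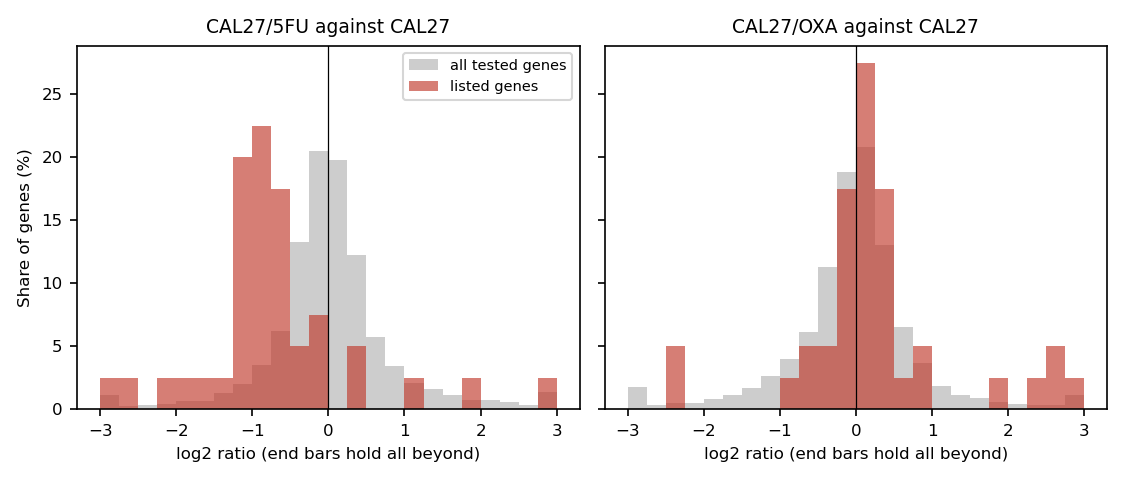
Share of genes (%) by log2 ratio in bins of width 0.25, for all 13676 tested genes (grey) and the 40 listed genes (red), in CAL27/5FU and in CAL27/OXA against CAL27, with values beyond 3 in the end bars. The red bars sit mostly below -0.5 on the left, and around 0 on the right.

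Set directly against each other, the derivatives differed more at the median of the list than CAL27/5FU differed from CAL27 (-0.78). The median of the 40 genes in CAL27/OXA against CAL27/5FU was 1.01 (2.01-fold), with 29 higher, 2 lower and 9 within 1.5-fold, beside 10.2% higher and 15.1% lower over all genes. Past 2-fold, 20 were higher and 2 lower, beside 4.18% and 8.38%. A direction of this kind follows in part from choosing genes that were low in CAL27/5FU. GSK3B stood at 1.04 (interval 0.97 to 1.11) and HCLS1 at 5.43 (5.09 to 5.88). The 2 lower genes were ILDR1 (-1.60) and MUC13 (-1.11). The 9 genes within 1.5-fold were FSTL1, RABL3, SLC15A2, CD86, PARP9, DTX3L, PARP14, MYLK and KALRN, with PARP14 at 0.07 and PARP9 at 0.25. Runs of higher windows, looked for after the lower ones were seen, covered the list in 2 pieces, while no lower run held GSK3B. Higher windows were 3.12% and lower windows 2.30% of all windows. The first held 27 genes from QTRT2 to CCDC58 with a median of 0.96, and the next 24 genes from WDR5B to ALG1L with a median of 0.99. They were separated at FAM162A, where the running median was 0.55.

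**Figure D5:**
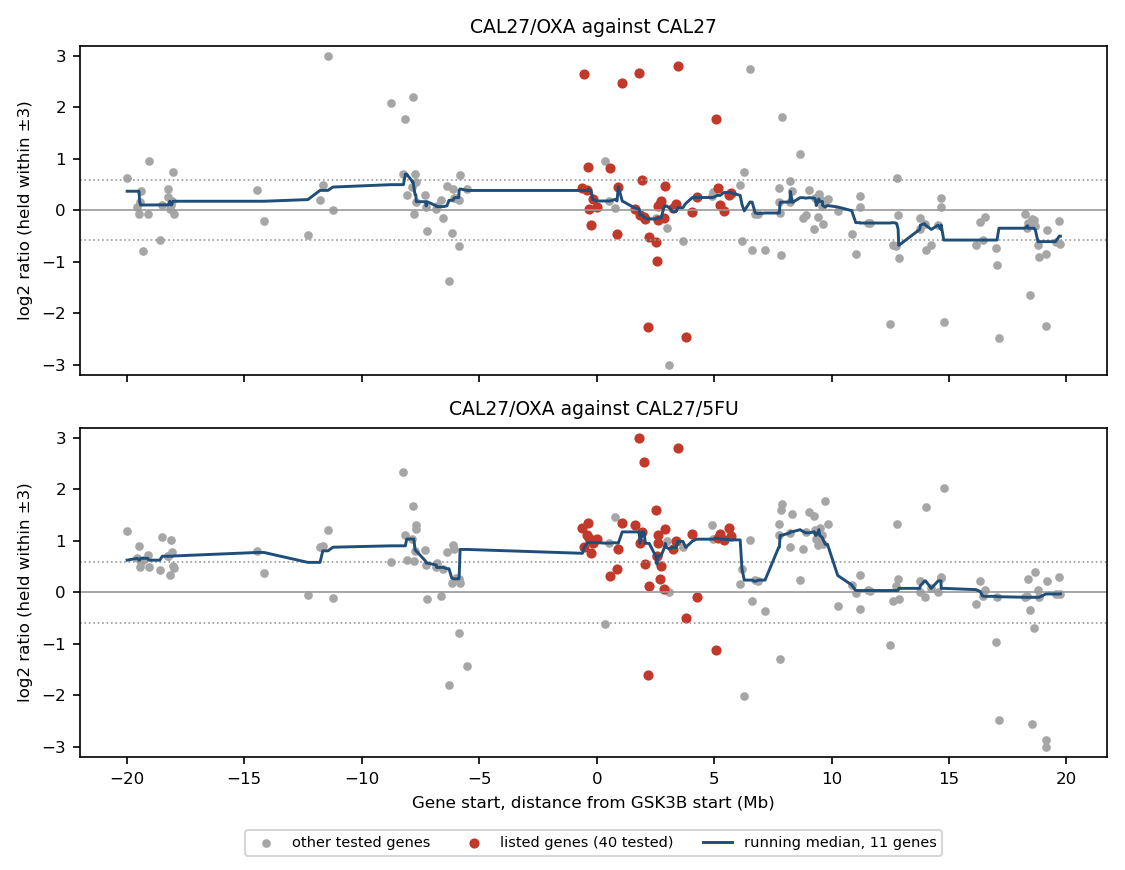
Log2 ratios along chromosome 3 within 20 Mb of GSK3B for CAL27/OXA against CAL27 (upper panel) and against CAL27/5FU (lower panel), by distance from the GSK3B start, with listed genes red, other tested genes grey, the running median of 11 genes as a line, dotted lines at 1.5-fold and values beyond 3 drawn at the edge. At the listed genes the line lies between -0.17 and 0.46 in the upper panel and between 0.55 and 1.18 in the lower one.

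The 7 listed genes that did not pass the filter were hardly detected. IGSF11, an adhesion molecule, had 0, 0 and 9 counts. With 3 counts in place of the 0, it was 2.63-fold higher in CAL27/OXA than in CAL27. Its interval began at a log2 ratio of 0.79. CD80, the other co-stimulatory ligand, had 0, 0 and 6 counts (1.75-fold higher by the same rule, with an interval that began at a log2 ratio of 0.05). UPK1B, a urothelial plaque protein, had 2, 0 and 0 counts, and POPDC2, a muscle membrane protein, had 4, 1 and 8. HGD, an enzyme of tyrosine breakdown, had 0, 2 and 2 counts, CASR, the calcium-sensing receptor, had 0, 0 and 2, and FBXO40 was at 0 in each library. A difference for these genes in CAL27/5FU was not detectable at this depth, where 3 counts correspond to 0.0770, 0.0766 and 0.0675 CPM.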

How the data were processed

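RNA from 3 lines was sequenced by Novogene (NEBNext Ultra library kit, Illumina platform). Per the submitters' processing notes, CASAVA 1.8, HISAT2 2.0.5 and GRCh38/hg38 were used. The counting tool, its annotation and the strandedness are not given in the sources used here. The authors deposited raw read counts per gene symbol, without normalization, and FPKM values, in which the counts are scaled by gene length and total count. Within 0.1%, the FPKM of 100% of 14367 genes gave the same gene length in all libraries. A further 3 columns of per-sample values, whose names read like other samples of the same lines, matched no labelled sample and were not used. The limit to 1 library therefore lies in the columns used. The libraries held 41786182 (CAL27), 37297713 (CAL27/5FU) and 43455488 (CAL27/OXA) counts.

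Counts were scaled with TMM (edgeR 4.0.16, R 4.3.3; factors 0.932, 1.05 and 1.02), and log2 ratios were taken (prior count 2) for all 13676 genes averaging 10 counts or more. With 1 library used for each line no p-value was computed. Intervals are exact Clopper-Pearson 95% intervals on pairs of counts (scipy 1.17.1). Folds given for a gene with a 0 use 3 counts in its place and leave out counting error in the other library. Calls are past 1.5-fold. Positions came from GENCODE 29 (GRCh38), matched for 18781 of 19220 symbols, and promoters from RefSeq (GRCh38.p14). Windows held 11 tested genes.

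Named are all 47 genes, UMPS, up to 5 other genes of the span in each direction that averaged 100 counts or more, taken by the size of their ratio in CAL27/5FU, the genes at the ends of stretches, and the 2 highest and 2 lowest tested genes of each list in CAL27/5FU, where a list has that many. Other names are said to be chosen later, or are cell type markers or neighbours that a position refers to. The genes, lists and rules were chosen with earlier results of these data known. Gene lists for the destruction complex, interferon-stimulated genes, the PARP family and markers of squamous, leukocyte, fibroblast and endothelial cells were written from general knowledge. Alternatives were DESeq2 1.42.0 size factors, upper quartile, total counts, other filters, prior counts, FPKM with pseudocounts of 1 and 0.1, scaling to the rest of chromosome 3, a 2-fold threshold and other windows. A few genes of the span and of the marker lists are not reported here. The steps were checked on simulated counts that held counting error only, so the check says nothing of variation between replicates.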

Additional observations from a re-analysis of the deposited data

How the results depend on the processing

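No value reversed a called direction under the alternatives. Of the summary values, 136 moved little and 28 moved. Of the values for single genes, 983 stayed within their counting interval and 202 moved out of it. No paired analysis was possible because 1 library was used for each line and no test was made, and for the same reason no replicate could be left out. For CAL27/5FU against CAL27, the median was -0.61 with total counts, -0.53 with FPKM and a pseudocount of 1, and -0.60 with a pseudocount of 0.1. Lower genes numbered 17 with FPKM and a pseudocount of 1 and 14 past 2-fold. Higher genes numbered 1 with a filter of 50 mean counts, 1 with FPKM and a pseudocount of 1, and 0 with a filter of 200 mean counts. The run around GSK3B held 13 genes with total counts, FPKM with a pseudocount of 0.1 or the rest of chromosome 3 as reference, 0 with FPKM and a pseudocount of 1, 9 with windows of 7 and 82 with windows of 21. With the filter of 50, 2 genes broke the fall, ARHGAP31 and FSTL1. For CAL27/OXA against CAL27, the median was 0.25 with total counts, higher genes numbered 12 of 46 with at least 1 count, 4 with a filter of 50 mean counts or FPKM with a pseudocount of 1 and 3 with a filter of 200 mean counts, and lower genes numbered 2 past 2-fold. For CAL27/OXA against CAL27/5FU, the median was 0.79 with FPKM and a pseudocount of 1, lower genes numbered 1 with that setting or a filter of 50 mean counts and 0 with that of 200, and the higher run held 45 genes with a filter of 50 mean counts, 83 with windows of 21 and 53 under a lower fold threshold. The limit of 200 counts and the higher runs were added after seeing the data. The sign of a single gene changed between settings for PARP9 and ADCY5 in CAL27/5FU and for GOLGB1, CCDC14 and ZNF148 in CAL27/OXA, all with values near 0. The causes were not tested, apart from stricter filters and the 2-fold threshold, which by construction keep fewer genes in the counts of listed genes, and the filter of 1 count, which keeps more. Total counts moved the median of all genes by 0.17 in CAL27/5FU and 0.13 in CAL27/OXA.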

Other observations

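Beyond the span, the second lower run on 3q contained several abundant housekeeping genes, named after their values were seen. RPN1, a subunit of the oligosaccharyltransferase, had 17331, 8828 and 17885 counts (-0.98 in CAL27/5FU, -0.14 in CAL27/OXA). RAB7A, the late endosomal GTPase, had 14658, 6063 and 15585 counts (-1.28 and -0.10). Higher past 1.5-fold in that run were PODXL2 (855, 2038 and 939 counts, 1.24) and GATA2 (209, 381 and 513 counts, 0.85), a transcription factor of blood and endothelial cells. MGLL (1118, 1200 and 4498 counts, 0.095, interval -0.02 to 0.21) was also above 0. So was ALG1L2 (45, 54 and 51 counts, 0.25, interval -0.34 to 0.86).

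The 4 endothelial markers summed to 2.57, 9.35 and 4.70 CPM in the order used above, with CDH5 at 43, 338 and 163 counts PECAM1 at 13, 6 and 11 and VWF at 44, 19 and 29.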
